A study of Mus musculus with 6 samples.

Results

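The goblet cell mucus genes are 9 genes chosen by name: Muc2, Muc13, Zg16, Fcgbp, Tff3, Agr2, Spdef, Spink4 and Clca3. Rows were found for 8 of the 9 among the 23284 genes counted, and Muc2 was not analysed here. Intestinal RNA was sequenced from SHP-KO mice (3 libraries), which lack the small heterodimer partner SHP encoded by Nr0b2, and from wild-type (WT) mice (3 libraries). All mice were males of 8 weeks, fasted overnight and given food again for 6 h, and the tissue is labelled as jejunum and ileum together. The labels give no strain, no share of each segment and no statement that libraries came from separate animals. The p-values therefore reflect variation among the 6 libraries alone, and that variation could be technical.

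Goblet cells are secretory cells of the gut epithelium that fill their apical granules with mucus proteins and release them as a gel over the surface. The gel is built on the polymeric mucin Muc2, to which Fcgbp, Clca3 and Zg16 are added as secreted partners, while Muc13 stays anchored in the cell membrane. Assembly takes place in the endoplasmic reticulum with the help of Agr2, a disulfide isomerase, and the transcription factor Spdef drives the last steps of goblet cell differentiation. Goblet cells descend from Atoh1-expressing progenitors that escape Notch signalling, and they become more frequent towards the lower gut.

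Total counts were 7956528 to 9289543 in SHP-KO libraries and 11265437 to 13511800 in WT libraries, and 12106 genes passed the filter on low counts and were tested. Nr0b2 had 1, 0 and 0 counts in SHP-KO replicates 1 to 3, against 31, 14 and 23 in WT replicates 1 to 3. Levels are given in CPM, counts relative to library size after scaling with trimmed means of M-values (TMM). The libraries of a genotype lay very close together, with an estimated common coefficient of variation (CV) of 0.0297, and 70.6% of tested genes passed in either direction (edgeR quasi-likelihood test, adjusted p under 0.05). A share of 35.2% of tested genes passed as higher in SHP-KO and 35.4% as lower. In RNA of whole tissue, a change in the number of goblet cells and a change in RNA per goblet cell cannot be told apart.

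Promoter sequence was at hand for 4 of the 8 counted genes, Agr2, Spdef, Fcgbp and Muc13, and 1 window of each is shown. These 4 genes were all higher in SHP-KO and differed in size of change. Each line gives the 250 bases before the annotated start on the gene's own strand, from RefSeq on GRCm38.p6, with motif matches in capitals. The Muc13 window is that of 1 of its 2 annotated starts, and the window of the other start held none of the motifs searched below.
Agr2 (chr12:35992675-35992924, + strand): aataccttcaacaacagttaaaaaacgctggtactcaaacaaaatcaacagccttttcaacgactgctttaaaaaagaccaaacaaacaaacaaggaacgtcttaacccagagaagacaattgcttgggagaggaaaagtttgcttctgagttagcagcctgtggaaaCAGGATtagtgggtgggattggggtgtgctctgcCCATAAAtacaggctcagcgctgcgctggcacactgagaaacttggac
Spdef (chr17:27728952-27729201, - strand): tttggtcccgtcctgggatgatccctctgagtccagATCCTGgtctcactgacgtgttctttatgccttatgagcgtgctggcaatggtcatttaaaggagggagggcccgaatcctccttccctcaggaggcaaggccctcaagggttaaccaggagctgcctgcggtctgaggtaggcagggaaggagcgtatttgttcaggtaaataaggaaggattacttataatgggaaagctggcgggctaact
Fcgbp (chr7:28070986-28071235, + strand): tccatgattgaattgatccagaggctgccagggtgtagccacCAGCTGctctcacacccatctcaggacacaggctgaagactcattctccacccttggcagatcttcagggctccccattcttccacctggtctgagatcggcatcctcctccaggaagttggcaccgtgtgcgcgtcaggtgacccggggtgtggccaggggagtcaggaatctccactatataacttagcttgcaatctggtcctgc
Muc13 (chr16:33794239-33794488, + strand): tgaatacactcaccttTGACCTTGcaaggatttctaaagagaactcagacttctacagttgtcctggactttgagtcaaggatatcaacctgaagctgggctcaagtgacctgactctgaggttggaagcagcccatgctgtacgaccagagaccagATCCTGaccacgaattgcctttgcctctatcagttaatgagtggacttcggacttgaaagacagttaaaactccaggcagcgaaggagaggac

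Both strands were searched for a set of short motifs. The letters CAGGAT stood for the SPDEF site, and a variant of that site was CCGGAT. The E-box bound by ATOH1 was searched as CAGCTG, the FOXA site as TGTTTAC, and the CDX2 site as TTTATNG. LRH-1, a nuclear receptor that SHP binds, was given the site CAAGGTCA, and the TATA box was searched as TATAAA. The last of these, read on the other strand, can overlap the CDX2 motif, and no matches overlapped in the windows shown. CAGGAT stands in the windows of Agr2, Spdef and Muc13, where it begins 82, 214 and 93 bases before the start. In windows of the same 250 bases, 13.6% of all 32851 promoters held it. CAGCTG is found in the Fcgbp window and in 13.0% of all promoters. CAAGGTCA is found in the Muc13 window and in 1.33%, and TTTATNG in the Agr2 window and in 9.81%. The exact strings searched for the SPDEF variant, the FOXA site and the TATA box have no match in the windows shown. They were held by 4.94%, 3.17% and 12.4% of promoters. No other spellings were searched. These matches are a description of the sequence and show no binding.

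All 8 counted genes rose in SHP-KO, by 1.4-fold to 3.24-fold, with no overlap between the libraries of the genotypes. Groups that do not overlap, with SHP-KO higher, were found in 35.9% of tested genes (72.0% in either direction), and the median log2 fold change was 1.54 over the 8 genes and -0.01 over all tested genes. Of the 8 genes, 6 rose at least 2-fold and 7 at least 1.5-fold, sizes that 11.9% and 19.5% of tested genes reached as called rises. Together the 8 genes took 1.06% ± 0.010 of all counts in SHP-KO and 0.502% ± 0.002 in WT (SD, n = 3 each).

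**Figure D1:**
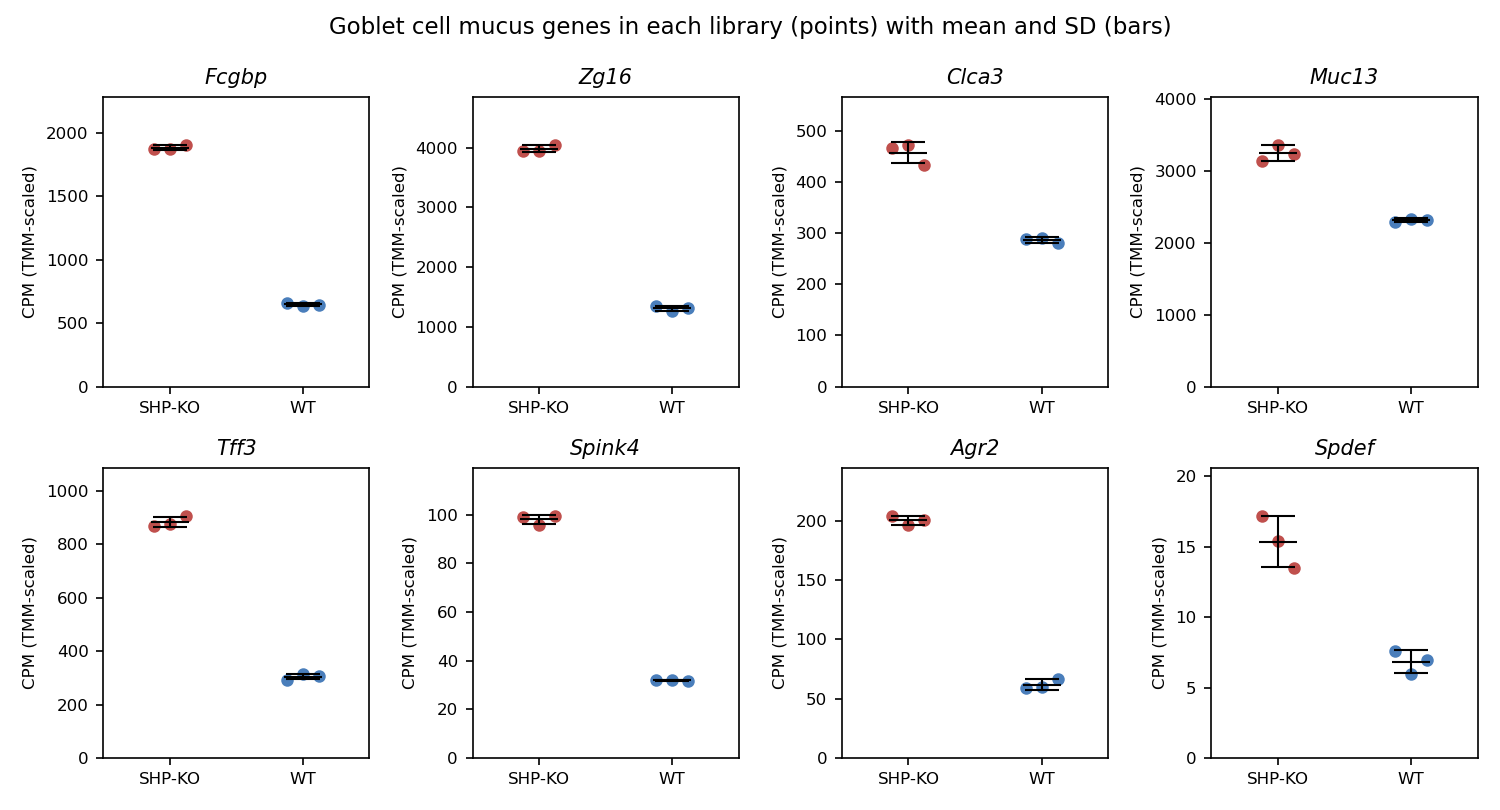
Level of each goblet cell mucus gene in TMM-scaled CPM (vertical axes, from 0) in SHP-KO and WT libraries, with points for libraries and bars for mean and SD of 3. Every SHP-KO point lies above every WT point, with the narrowest relative gaps for Muc13 and Clca3.

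Among the secreted partners of the mucin gel, Fcgbp and Zg16 rose together. Fcgbp, a large von Willebrand-domain protein of mucus, lies on chromosome 7 from 28856255 to 28905883 (mm9) with 20 exon intervals. Its level was 1874, 1872 and 1905 CPM in SHP-KO libraries and 661.2, 638.1 and 646.9 CPM in WT libraries. The SHP-KO libraries lie close together and all far above WT, with a log2 fold change of 1.54 (SE 0.025, edgeR quasi-likelihood adjusted p 3.8e-69).

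Zg16, a small lectin that binds the cell wall of Gram-positive bacteria and keeps them in the mucus, lies on chromosome 7 from 134193670 to 134195491 (mm9). It had 3950, 3949 and 4046 CPM in SHP-KO libraries, against 1346, 1270 and 1314 CPM in WT libraries. The genotypes were widely separated, with a log2 fold change of 1.60 (SE 0.024, edgeR quasi-likelihood adjusted p 2.3e-72), or 3.04-fold. Per length of transcript, Zg16 ranked 5 among all genes in SHP-KO and 20 in WT.

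Clca3, the goblet cell protein also called gob-5, which cleaves Muc2 in mouse mucus, rose less. RefSeq now names this gene Clca1, and the row used here, on chromosome 3 from 144667501 to 144695740 (mm9), has the same span of 28240 bp as the RefSeq gene with that synonym. It had 466.3, 472.4 and 433.6 CPM in SHP-KO and 289.3, 290.3 and 279.9 CPM in WT. The lowest SHP-KO library was still above all WT libraries, at a log2 fold change of 0.68 (SE 0.031, edgeR quasi-likelihood adjusted p 4.5e-35).

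Other Clca loci differed in direction. Clca6, a more abundant neighbour on the same chromosome, fell to 1881 ± 5.65 CPM in SHP-KO, against 2291 ± 86.7 CPM in WT (SD, n = 3 each). The row named Clca1 in these files is a different gene, now Clca3a1, and it rose to 17.0 ± 1.84 CPM in SHP-KO, against 1.35 ± 0.22 CPM in WT. The rows named Clca4 and Clca2 fell, with log2 fold changes of -2.50 and -0.84. The names Clca2, Clca4 and Clca6 are those of the counted rows, and their present symbols were not checked. These loci are related copies, and how reads that match several of them were assigned could shift their counts.

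Muc13, the membrane mucin of this set, made by goblet cells and by enterocytes, rose least. It had 3140, 3358 and 3227 CPM in SHP-KO libraries, against 2288, 2333 and 2319 CPM in WT libraries. The groups are apart but close, with a log2 fold change of 0.49 (SE 0.023, edgeR quasi-likelihood adjusted p 8.0e-34), or 1.4-fold. An exact test that assumes a CV of 0.2 called 33.4% of tested genes, 17.9% as higher, and 7 of the 8 members. Muc13 did not pass it (adjusted p 0.10, edgeR exact test). In the authors' deposited table its adjusted p is 0.11, while the other 7 are under 0.05 there.

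The peptides Tff3 and Spink4 rose about as much as Zg16 and Fcgbp. Tff3, a trefoil peptide that aids repair of the epithelium, lies on chromosome 17 from 31262251 to 31266556 (mm9). It had 871.0, 875.6 and 906.3 CPM in SHP-KO and 293.5, 313.4 and 306.9 CPM in WT, a log2 fold change of 1.54 (SE 0.028, edgeR quasi-likelihood adjusted p 1.0e-64). Spink4, a Kazal-type peptide of goblet cells, is on chromosome 4 from 40867089 to 40878428 (mm9). It had 98.9, 95.7 and 99.3 CPM in SHP-KO and 32.1, 31.8 and 31.6 CPM in WT. Its WT libraries hardly differ, and the log2 fold change was 1.62 (SE 0.057, edgeR quasi-likelihood adjusted p 3.1e-43).

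Agr2, the disulfide isomerase without which mice do not make intestinal Muc2, rose most. It lies on chromosome 12 from 36719512 to 36730668 (mm9), and its promoter window is the first one shown. Levels were 204.1, 196.4 and 201.0 CPM in SHP-KO and 58.7, 59.6 and 67.0 CPM in WT. The log2 fold change was 1.70 (SE 0.043, edgeR quasi-likelihood adjusted p 8.7e-54), or 3.24-fold, and 689 of the 12106 tested genes had a larger one.

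Spdef, an ETS-family factor and the regulator of the set, was the least abundant member. It lies on chromosome 17 from 27851392 to 27865896 (mm9). It held 135, 141 and 118 counts in SHP-KO libraries and 104, 68 and 92 counts in WT libraries, which are 17.2, 15.4 and 13.5 CPM in SHP-KO and 7.60, 5.96 and 6.95 CPM in WT. The lowest SHP-KO library is well above the highest WT library, at a log2 fold change of 1.15 (SE 0.13, edgeR quasi-likelihood adjusted p 1.1e-13). Without any 1 of the 6 libraries this value lay between 1.06 and 1.24.

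**Figure D2:**
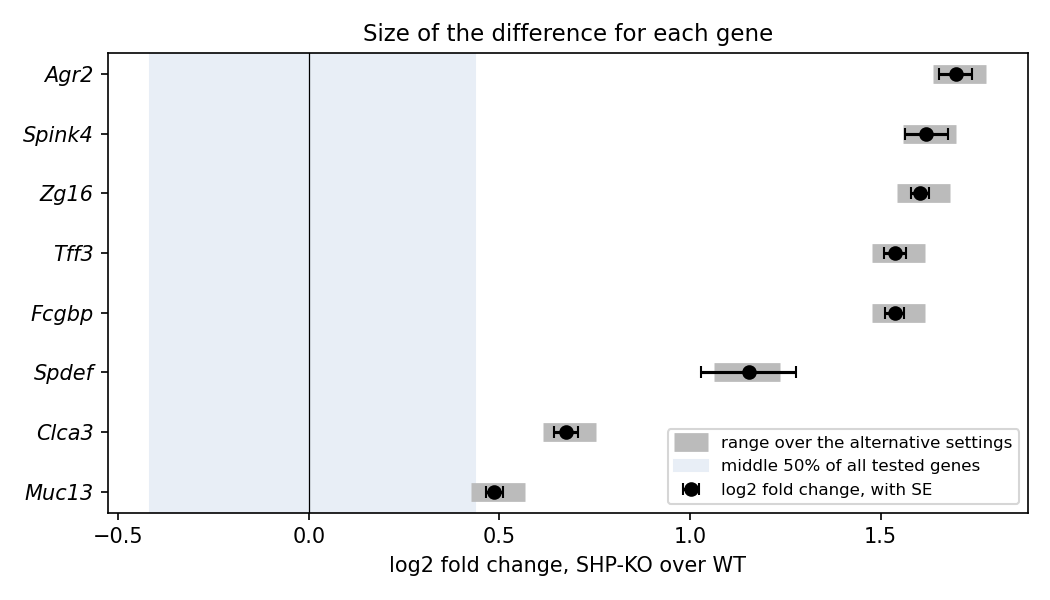
Log2 fold change of SHP-KO over WT for each goblet cell mucus gene (points, with SE), its range over the alternative settings (grey bars) and the range of the middle 50% of all tested genes (shaded). Of the 8 genes, 5 lie between 1.54 and 1.70, Spdef is at 1.15, and Clca3 and Muc13 are at 0.68 and 0.49.

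Per length of transcript the genes differ widely in level. In SHP-KO the order of mean CPM per kb of exon was Zg16 (6261 ± 87.9), Tff3 (1931 ± 41.9), Muc13 (1092 ± 37.0), Agr2 (263.8 ± 5.09), Spink4 (249.3 ± 5.05), Fcgbp (237.5 ± 2.34), Clca3 (155.9 ± 7.11) and Spdef (8.43 ± 1.00; SD, n = 3 each). No neighbours in that order had overlapping libraries. In WT the order was Zg16 (2060 ± 59.6), Muc13 (779.1 ± 7.81), Tff3 (665.1 ± 22.1), Clca3 (97.6 ± 1.96), Fcgbp (81.8 ± 1.47), Agr2 (81.3 ± 6.04), Spink4 (81.0 ± 0.69) and Spdef (3.75 ± 0.45; SD, n = 3 each). There the libraries of Fcgbp and Agr2 overlapped, as did those of Agr2 and Spink4. Muc13 and Tff3 thus changed places, and Clca3 stood below Agr2, Spink4 and Fcgbp in SHP-KO but above them in WT.

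The make-up of the set shifted in the same way. Zg16 made up 61.4% ± 0.24 of the summed CPM per kb in SHP-KO and 53.5% ± 1.11 in WT (SD, n = 3 each). The share of Muc13 was 10.7% ± 0.37 in SHP-KO and 20.2% ± 0.37 in WT, and that of Clca3 was 1.53% ± 0.087 in SHP-KO and 2.54% ± 0.066 in WT. Tff3 held 18.9% ± 0.18 in SHP-KO and 17.3% ± 0.71 in WT. Without Muc13, the other 7 genes summed to 7521 ± 72.9 CPM in SHP-KO and 2650 ± 39.4 CPM in WT, a ratio of 2.84.

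**Figure D3:**
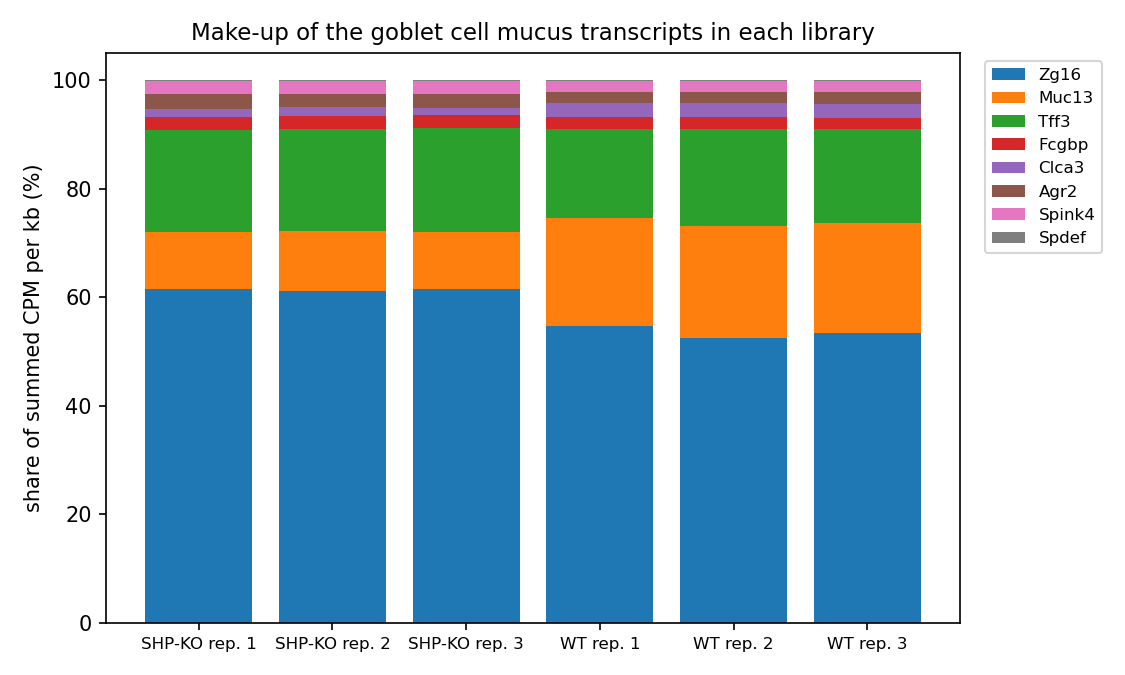
Share of each gene in the summed CPM per kb of the 8 goblet cell mucus genes (vertical axis, percent), with 1 stacked bar per library. The Muc13 share is near 10.7% in SHP-KO bars and 20.2% in WT bars, and Zg16 is the largest segment in all 6.

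Ratios within a library need no scaling between libraries. Set against Zg16 in the same library, a denominator chosen after the data were seen, Spink4, Tff3 and Agr2 had ratios whose libraries overlapped between genotypes. Their ratios to Zg16 were 1.01, 0.96 and 1.07 times those of WT in SHP-KO (exact permutation p 0.60, 0.40 and 0.30, two-sided, 7 ratios). Muc13 counts were 79.5, 85.0 and 79.8 per 100 Zg16 counts in SHP-KO, against 170.0, 183.7 and 176.5 in WT, 0.46 times as high. Clca3 had 11.5 ± 0.68 counts per 100 of Zg16 in SHP-KO and 21.9 ± 0.85 in WT (SD, n = 3 each), also without overlap. For Spdef the factor was 0.74 and for Fcgbp 0.96, in both cases without overlap. The exact permutation p was 0.10 for Muc13, Clca3, Spdef and Fcgbp, the smallest that 3 libraries against 3 allow, and 0.17 after adjustment over the 7 ratios. Set against the sum of the other members, ratios in SHP-KO were 1.64 times those of WT for Zg16 and 1.51 times for Agr2. The factors were 1.42 for Spink4, 1.41 for Fcgbp and 1.37 for Tff3, against 0.49 for Muc13 and 0.72 for Clca3. None of these overlapped between genotypes (exact permutation p 0.10, or 0.11 after adjustment over 8 ratios). Spdef overlapped, at a factor of 1.04 (exact permutation p 0.70). Muc13 held 30.1% ± 0.77 of the members' summed counts in SHP-KO and 46.6% ± 0.61 in WT (SD, n = 3 each). Factors of the other genes against this sum therefore partly restate the small rise of Muc13.

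Epithelial content was compared in the same way, using 20 genes expressed across gut epithelium. These took 2.71% to 2.72% of counts in SHP-KO and 2.93% to 2.95% in WT, and of the 20 genes 7 rose, 12 fell and Epcam did not pass. The exact test at a CV of 0.2 called 1 of them higher and 4 lower. Per 100 counts of their sum, Zg16 had 14.5 ± 0.21 in SHP-KO and 4.51 ± 0.12 in WT, Agr2 had 0.73 ± 0.013 in SHP-KO and 0.21 ± 0.016 in WT, and Muc13 had 11.8 ± 0.41 in SHP-KO and 7.96 ± 0.10 in WT (SD, n = 3 each). All 8 ratios were higher in each SHP-KO library than in any WT library, from 1.48 times for Muc13 to 3.43 times for Agr2. Each had an exact permutation p of 0.10, the smallest possible, also after adjustment over the 8 ratios.

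Other genes known from goblet cells went both ways. Of 20 listed, 15 were tested, of which 9 rose, 4 fell and 2 did not pass, at a median of 0.53 on the log2 scale. Capn9, a calpain of digestive mucous cells, reached 21.2 ± 0.87 CPM in SHP-KO, against 6.88 ± 0.63 CPM in WT (SD, n = 3 each), and Bcas1 40.2 ± 1.01 CPM in SHP-KO, against 17.3 ± 0.25 CPM in WT. Slc12a8 and Tpsg1 rose by log2 1.24 and 1.19. The chemokine Ccl9 fell to 2.57 ± 0.58 CPM in SHP-KO, against 9.16 ± 0.87 CPM in WT. Guca2a (guanylin), which enterocytes also make, Ang4 and Lrrc26 fell as well, with log2 fold changes of -0.28, -0.68 and -0.66. With the assumed CV of 0.2, 7 rose and 2 fell.

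Regulators of the secretory lineage went both ways. Of 13 tested, 5 rose, 4 fell and 4 did not pass, at a median of 0.17 on the log2 scale. Creb3l1, an ER-bound factor of secretory cells, rose to 10.3 ± 1.69 CPM in SHP-KO, against 4.40 ± 0.30 CPM in WT (SD, n = 3 each). Gfi1 and Foxa3, which act in goblet cell specification, rose by log2 1.64 and 0.86. Klf4, which goblet cells need in colon but which enterocytes also express, fell to 470.1 ± 10.3 CPM in SHP-KO, against 633.1 ± 16.1 CPM in WT. Foxa1 had a log2 fold change of -0.83. Atoh1, the factor at the head of the lineage, was at 6.70 ± 1.21 CPM in SHP-KO and 5.48 ± 0.42 CPM in WT and did not pass (adjusted p 0.082, edgeR). Neurog3, which directs cells to the enteroendocrine fate instead, held 1, 3 and 0 counts in SHP-KO and 15, 11 and 17 in WT. At an assumed CV of 0.2, 4 of the 13 were higher and 3 lower.

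Of 14 Notch pathway genes 2 rose, 6 fell and 6 did not pass. The ligand Dll1, which secretory progenitors display, had 68.8 ± 2.31 CPM in SHP-KO and 28.2 ± 0.15 CPM in WT (SD, n = 3 each), and Dll4 rose by log2 0.43. The protease Adam10, which cuts Notch receptors, fell with a log2 fold change of -0.66. Hes1, the target through which Notch blocks secretory fate, had 72, 93 and 94 counts in SHP-KO and 163, 129 and 158 counts in WT and did not pass (adjusted p 0.093, edgeR). At an assumed CV of 0.2 the exact test called 1 of the 14 higher and 1 lower.

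Of 14 further mucins and mucin-like genes listed, 9 were counted and 2 passed the filter, while Muc3, Muc3a, Muc16 and Muc17 were not analysed here. Cdhr5, a mucin-like protocadherin of the brush border, rose to 2758 ± 80.3 CPM in SHP-KO, against 2491 ± 23.4 CPM in WT (SD, n = 3 each). Muc4, a membrane mucin, rose to 3.64 ± 0.69 CPM in SHP-KO, against 1.64 ± 0.54 CPM in WT. Muc5ac, the gastric gel-forming mucin, had 0 counts in all 6 libraries, which allows up to 0.12 CPM in SHP-KO and 0.078 CPM in WT (3 counts over the group, counting error only). Muc6, the mucin of gastric and duodenal glands, had 28 counts in all SHP-KO and 4 in all WT libraries and was below the filter.

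Glycosylation genes went both ways. Of 25 tested enzymes of mucin O-glycosylation and its sulfation, 14 fell, 9 rose and 2 did not pass, at a median of -0.11 on the log2 scale. Gcnt1 and Gcnt3, which branch the O-glycan core, fell: Gcnt1 to 1.40 ± 0.48 CPM in SHP-KO, against 17.7 ± 1.48 CPM in WT (SD, n = 3 each). Gcnt3 fell to 22.1 ± 2.08 CPM in SHP-KO, against 50.8 ± 0.76 CPM in WT. C1galt1 and its chaperone C1galt1c1, which build the core, had log2 fold changes of -0.73 and -0.62. B3gnt6, which makes the core found in intestinal mucin, had a log2 fold change of -1.24. Galnt enzymes, which start the chains, went both ways. Galnt2 and Galnt12 rose by log2 1.09 and 0.72, and Galnt6 and Galnt10 also rose. Galnt1, Galnt3, Galnt4 and Galnt7 fell, and Galnt11 did not pass. Chst4, a sulfotransferase, rose by log2 1.93. With the assumed CV of 0.2, 6 fell and 5 rose.

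Of 19 protein folding genes of the endoplasmic reticulum 9 rose, 4 fell and 6 did not pass. Ern2, a stress sensor particular to mucus-secreting epithelium, had 6.44 ± 0.65 CPM in SHP-KO and 1.23 ± 0.12 CPM in WT (SD, n = 3 each), a log2 fold change of 2.38. P4hb and Txndc5, further disulfide isomerases, rose by log2 0.76 and 0.79. Pdia3 fell to 502.6 ± 7.06 CPM in SHP-KO, against 649.9 ± 19.4 CPM in WT. With the assumed CV of 0.2, 4 of the 19 rose and no other passed.

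Of 20 genes of granule traffic and exocytosis 13 rose, 3 fell and 4 did not pass. Sytl2, a partner of Rab27 on secretory granules, had 31.1 ± 0.12 CPM in SHP-KO and 7.12 ± 0.73 CPM in WT (SD, n = 3 each). Rep15 and Rab27a rose by log2 1.33 and 0.78, and Stxbp2 by log2 0.45. Scin, an actin-severing protein of secretory cells, fell to 136.6 ± 4.28 CPM in SHP-KO, against 302.9 ± 7.22 CPM in WT. With the assumed CV of 0.2, 8 rose and 1 fell.

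Of 10 tested genes that act on mucus during or after release, 6 fell, 2 rose and 2 did not pass. Mep1b, the meprin subunit that frees Muc2 mucus from the cells in mouse small intestine, had 1875 ± 34.5 CPM in SHP-KO and 1761 ± 29.7 CPM in WT (SD, n = 3 each), a log2 fold change of 0.09. Mep1a, its partner subunit and a gene of the ileum list, fell to 801.0 ± 8.10 CPM in SHP-KO, against 2370 ± 88.6 CPM in WT. Cftr, the anion channel that lets mucus unfold, had a log2 fold change of -0.21 (adjusted p 0.0099, edgeR), which did not pass with the assumed CV (adjusted p 0.58, edgeR exact test). Slc26a3 and Slc9a3 moved apart, at log2 -0.67 and 1.15. At an assumed CV of 0.2, 1 of the 10 was higher and 3 were lower.

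Among signals known to act on goblet cells, 7 of 12 genes were tested, with 4 higher, 2 lower and 1 not passing (1 higher and 1 lower at an assumed CV of 0.2). Il33, an alarmin of stromal and epithelial cells, rose to 25.3 ± 3.53 CPM in SHP-KO, against 4.04 ± 0.80 CPM in WT (SD, n = 3 each). Il18 rose by log2 0.43. Il22ra1, a receptor chain for IL-22, fell to 214.2 ± 4.75 CPM in SHP-KO, against 339.7 ± 4.41 CPM in WT. The cytokine Il13 had 0 counts in all libraries, and Il4 had 1 count in SHP-KO and 3 in WT. Some genes outside the set named so far as risen or fallen were not called by the exact test at a CV of 0.2. Leaving aside those given without a value, these were Clca6, Clca2, Guca2a, Ang4, Klf4, Dll4, Cdhr5, Pdia3, Stxbp2, Mep1b, Il18 and Cftr.

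**Figure D4:**
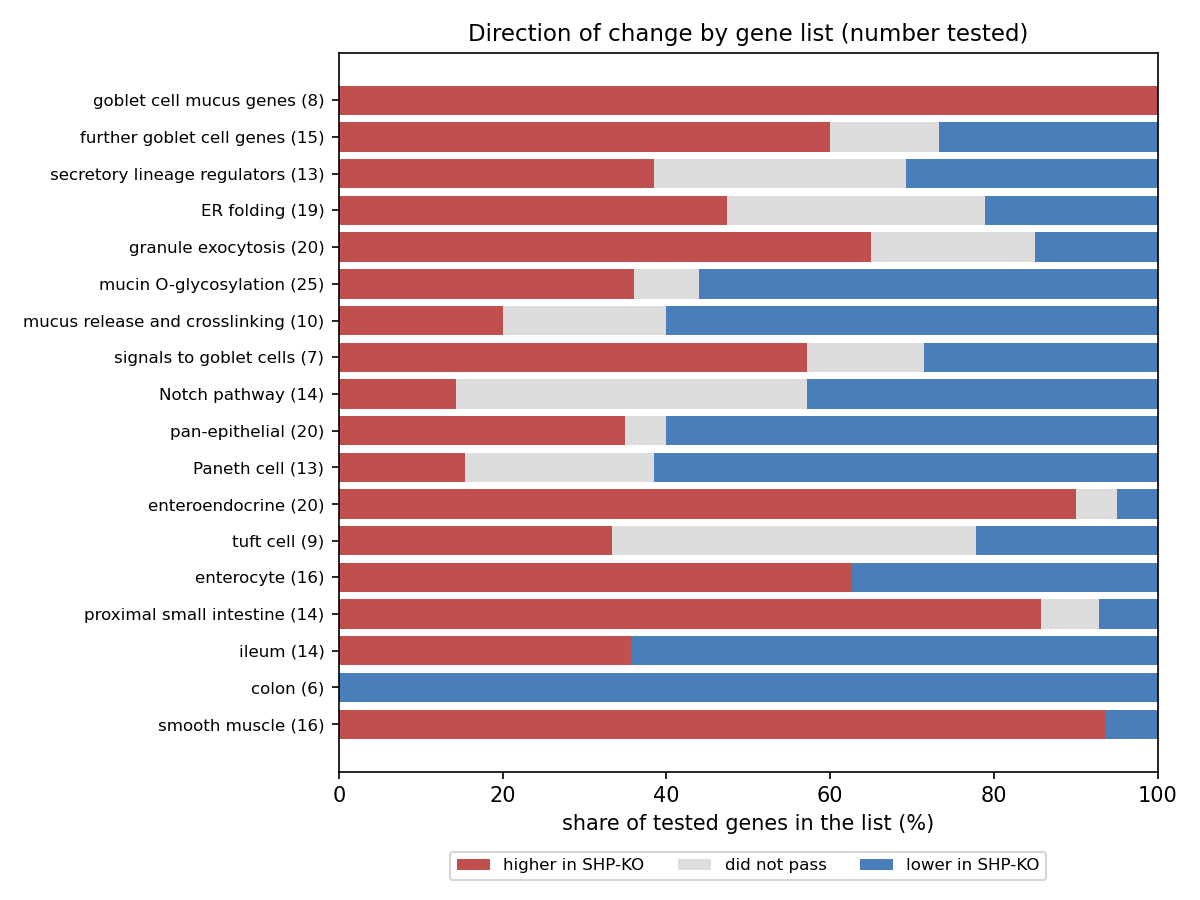
Share of tested genes (horizontal axis, percent) that passed as higher in SHP-KO, did not pass, or passed as lower, for the goblet cell mucus genes and for other gene lists, with the number tested in brackets. The 8 goblet cell mucus genes are all in the higher class, beside 18 of 20 enteroendocrine, 12 of 14 proximal and 15 of 16 smooth muscle genes. Lists share some genes, such as Gip, Cck and Sct in the enteroendocrine and proximal lists.

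Markers of other cells and segments, in lists that share some genes, moved in the same libraries. Of 20 enteroendocrine genes, 18 rose, 1 fell and 1 did not pass. Their sum was 815.9 to 827.4 CPM in SHP-KO and 367.2 to 378.9 CPM in WT. Chga was at 114.1 ± 4.20 CPM in SHP-KO and 35.7 ± 0.85 CPM in WT (SD, n = 3 each). Of 13 Paneth cell genes 8 fell and 3 did not pass, with Defa22 and Defa20, which have close copies, at log2 -1.49 and -1.04. The 2 that rose were Reg4 and Guca2b, which other epithelial cells also make. The list summed to 3338 to 3611 CPM in SHP-KO and 2698 to 2913 CPM in WT, of which Guca2b alone made up 3228 ± 124.5 CPM in SHP-KO and 2445 ± 100.7 CPM in WT (SD, n = 3 each). Of 9 tuft cell genes 3 rose and 2 fell, of 16 enterocyte genes 10 rose and 6 fell, and of 14 stem and cycling genes 2 rose and 12 fell. At an assumed CV of 0.2 the exact test called 15 enteroendocrine genes higher and 0 lower, 1 Paneth cell gene higher and 4 lower, and 2 tuft cell genes higher and 1 lower. It called 6 enterocyte genes higher and 2 lower, and 2 stem and cycling genes higher and 11 lower.

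By segment, 12 of 14 proximal small intestine genes rose, 1 fell and 1 did not pass, while 9 of 14 ileum genes fell and 5 rose (6 and 3 at an assumed CV of 0.2). The proximal list summed to 28369 to 28897 CPM in SHP-KO and 5918 to 6008 CPM in WT. The ileum list summed to 6083 to 6146 CPM in SHP-KO and 22444 to 22725 CPM in WT. Of the proximal sum, Apoa4 alone made up 18859 ± 160 CPM in SHP-KO and 3525 ± 59.8 CPM in WT (SD, n = 3 each). Of the ileum sum, Fabp6 alone made up 144.5 ± 4.67 CPM in SHP-KO and 10792 ± 252 CPM in WT (SD, n = 3 each). The proximal gene that fell was Slc40a1, and the ileum genes that rose were Slc10a2, Amn, Pyy, Nts and Enpp3. All 6 tested colon genes fell, and the colon and gastric products Retnlb and Tff1 had 0 counts in all libraries. No gene of the stomach and Brunner gland list passed the filter, at a sum of 1.09 to 1.83 CPM in SHP-KO and 0.44 to 0.61 CPM in WT. A different share of jejunum and ileum and the loss of SHP cannot be told apart here.

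Genes of the gut wall also rose. Of 16 smooth muscle genes 15 rose and 1 fell, with a sum of 2383 to 2427 CPM in SHP-KO and 893.3 to 920.2 CPM in WT. Of 9 neuron and glia genes 8 rose and 1 fell, at a sum of 56.0 to 57.7 CPM in SHP-KO and 17.0 to 20.6 CPM in WT. Of 12 fibroblast and matrix genes 10 rose, and all 7 tested adipocyte genes did. Of 6 endothelial genes 4 rose and 1 fell, of 11 T cell genes 8 rose and 1 fell, and of 7 macrophage and mast cell genes 3 rose and 2 fell. Of 13 B cell genes 12 fell and Cd74 rose. Neither of 2 tested pancreatic acinar genes passed, and no erythrocyte gene passed the filter. The part of these cell types in the rise of the goblet cell mucus genes was not tested.

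The genes most like the set were named by the distance of their centred log2 CPM (0.5 CPM added) over the 6 libraries from the members' median profile. Among 5 such genes of at least 10 CPM were Slc5a9, a sugar transporter, at 105.8 ± 2.38 CPM in SHP-KO and 37.3 ± 0.33 CPM in WT (SD, n = 3 each), and Entpd8, a nucleotide-cleaving enzyme, at 371.3 ± 6.20 CPM in SHP-KO and 128.8 ± 0.78 CPM in WT. Sgpl1, Mical1 and Tle1 followed, with distances of 0.030, 0.037 and 0.041, beside 0.026 and 0.027 for Slc5a9 and Entpd8. Among the members, Fcgbp, Tff3, Zg16 and Spink4 lay at 0.019, 0.033, 0.047 and 0.047, and Clca3 and Muc13 at 0.43 and 0.52. With 2 groups of libraries this likeness mostly ranks genes by their fold change.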

How the data were processed

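The members and all gene lists were chosen with earlier results of these data known. The tools named are STAR 2.6.0c, Trimmomatic 0.38, bcl2fastq 2.17.1.14 and FastQC 0.11.5, with build mm9, per the submitters' processing notes. The deposited counts were made with featureCounts 1.5.2 over exons without strand, per the file headers, so reads of overlapping genes cannot be told apart, and no exon of the 8 genes overlaps another gene's. The authors' deposited table holds log2 fold changes, log2 mean CPM, p-values and adjusted p-values, with edgeR named in the notes. An edgeR exact test with an assumed CV of 0.2 on genes above 1 CPM in 1 library or more gave the same 12939 genes and fold changes.

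Here genes passed filterByExpr (minimum count 10), were scaled by TMM and tested with edgeR 4.0.16 (robust quasi-likelihood, R 4.3.3), with Benjamini-Hochberg adjustment over 12106 genes and a threshold of 0.05. The main edgeR test was tried on simulated counts. The reading of the counts, the motif search and the alternative settings were not. Ratios used exact permutation tests (scipy 1.17.1). Ratios to Muc2, planned, were not computed. Named genes were the members, Nr0b2, up to 3 genes per pathway list and 2 per cell type list with the smallest p (not all printed), Clca loci, and 5 genes of nearest profile. Other list genes were picked after their values were seen. Alternatives were DESeq2 1.42.0, limma-voom 3.58.1, other scalings and filters, the assumed CV, a replicate block and leaving out each library. Figures used matplotlib 3.10.9.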

Additional observations from a re-analysis of the deposited data

How the results depend on the processing

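All 8 counted genes were higher in SHP-KO under each of 17 alternatives, and 8 passed in all of them except a pair of settings. Those are the exact test at an assumed CV of 0.2 on either set of genes, where Muc13 did not pass and 7 did. They called 4041 genes, and 4483 on genes above 1 CPM in 1 library or more, against 8543 in the main test; the authors' table also calls 4483. Other settings called 7528 (DESeq2) to 9452 genes (no filter), and leaving out each library 8260 to 8407. Scaling on epithelial genes moved the median of all genes to 0.07 and the members by at most 0.08. With Zg16 as denominator, 4 of 7 ratios did not overlap, against 8 of 8 for the epithelial sum (Zg16 is itself a member, which leaves 7). The ratio of Spdef to the sum of the other members had a log2 difference of 0.05; leaving out each library gave -0.040 (without SHP-KO replicate 1) to 0.15 (without SHP-KO replicate 3), and -0.039 without WT replicate 2; the cause was not tested. Replicate numbers do not pair the libraries (correlations of deviations between same-numbered libraries from -0.0064 to 0.021), and with the replicate number as a block 8573 genes and 8 members passed. Spdef, with 68 to 141 counts per library, is the member whose precision depth limits most. Libraries of a genotype correlated at r 0.991 to 0.995 in log2 CPM across genes, which are not independent replicates.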
